A study of Mus musculus with 9 samples.

Results

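The 2 dermal papilla populations sorted from the back skin of 3 mice at postnatal day 2, numbered 2, 4 and 5, were compared gene by gene. The GFP+CD133+ gate, R3, is assigned by the labels to the papillae of guard, awl and auchene follicles, and the GFP-CD133+ gate, R2, to those of zigzag follicles. The comparison used the 6 arrays of these gates out of 9, with 1 array per mouse and gate. The remaining 3 arrays held R1, the GFP-CD133- remainder of the dermis without papilla cells, which shared in the estimate of the spread and is given as a reference level. A list of keratinocyte genes summed to 15.12 to 15.63 (log2) in R1, far above R2 and R3, so R1 levels need not be those of dermis alone. The gates share the animals, the tissue and the age, and about 50000 cells were collected per population. No treatment and no allele other than the GFP is named in the labels, and for the reporter's promoter, the strain and the sex nothing is given in the sources used here. GFP is taken here as a reporter of Sox2 from what is known of the study. CD133 is the product of Prom1. The sort rests on 2 proteins, so each population can hold any other cell that carries them, and Sox2 is also known from Schwann cells and Merkel cells, and CD133 from other cell types of the skin.

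The dermal papilla is the mesenchymal cluster at the base of the hair follicle that signals to the overlying epithelium through Wnt, BMP, FGF and hedgehog pathway genes. Mouse back skin forms guard, awl and auchene follicles in earlier waves and zigzag follicles last, and Sox2, a high mobility group transcription factor, is known to mark the papillae of the earlier types. Zigzag papillae are known for Sox18. R3 against R2 therefore compares gates assigned to papillae of different hair types, together with any other cells that each gate holds.

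Values are RMA log2 expression values, so that a difference of 1 is a factor of 2, and the values on the 3 arrays of a gate are given in the order of mice 2, 4 and 5. A gene was called where limma's adjusted p over 18193 genes was under 0.05. As a guide to background, 44 probe sets of olfactory receptors, genes not known from skin mesenchyme, had a 95th percentile between 5.14 and 5.46 on the 6 arrays. Arrays correlated across probe sets at 0.977 to 0.985 within R2 and R3 and at 0.967 to 0.974 between them. The difference of the 3' and 5' control probe sets was 0.11 to 0.22 for beta-actin in R2 and 0.12 to 0.20 in R3, and 2.57 to 2.85 and 2.68 to 3.02 for Gapdh, so the gates overlapped on both. Xist lay between 3.62 and 4.40 on all 9 arrays and the Y-linked gene Eif2s3y between 9.57 and 10.47, so neither separated the gates. The precision is limited by there being 3 arrays a gate.

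The genes behind the sort followed it; this is a check of the labels and not a result. Sox2 read 7.65, 6.43 and 7.17 in R2 and 10.62, 10.57 and 10.80 in R3. R1 stood at 4.19 ± 0.34. All R3 arrays were above all R2 arrays, and all R2 arrays were in turn above background although R2 was gated as GFP-negative. Prom1 stood at 11.89, 11.86 and 11.81 in R2 and at 10.16, 10.53 and 10.26 in R3. The R2 arrays were the higher, although both gates were sorted as CD133+. Sox2ot is the long noncoding transcript that overlaps Sox2. In R2 Sox2ot measured 7.39, 6.26 and 6.81, and in R3 7.73, 6.92 and 8.25. Its arrays overlapped between the gates and it was not called (log2 difference 0.81, standard error 0.36, adjusted p = 0.273).

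Across all genes, 915 of 18193 (5.03%) were called, 358 higher in R3 (1.97%) and 557 lower (3.06%). The median change over all genes was -0.01 on the log2 scale. Counts for gene lists below are to be read beside the shares of 1.97% higher and 3.06% lower. An unadjusted limma p under 0.05 was reached by 3285 of the 18193 genes, the base for the unadjusted counts below. For 4135 genes (22.7%) the R2 and R3 arrays did not overlap. At 4-fold or more, 67 genes were higher and 74 lower. Of the 915, 455 were called again whichever of the 6 arrays was left out, 199 higher and 256 lower. Without the R2 array of mouse 2, the R2 array of mouse 4 or the R3 array of mouse 4 the count fell to 596, 582 and 592. Genes described below as higher or lower kept their call without any 1 of the 6 arrays unless a loss is given. Many of the large folds rest on dim values: among the genes called higher, 96 had an R2 mean under 5.46, and among those called lower, 114 had an R3 mean under it. Where a called gene lay under 5.46 on all 3 arrays of its dimmer gate, the fold is given as a bound, the mean of the brighter gate against 5.46, beside the fitted difference. Clone-type symbols aside, the largest rises were Mbp (65.4-fold) and Bcas1 (37.1-fold), both of the myelin list described below. The largest falls were Depp1 (at least 14.1-fold, fitted log2 difference -4.21) and Adgrf5 (16.8-fold), both of the blood endothelial list. The 15 largest falls also held Mmrn1 of the lymphatic list (15.7-fold) and the Hox gene Hoxd13. For 5755 genes both gate means were at least 8, well above background, and 113 of these were called higher and 201 lower.

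**Figure D1:**
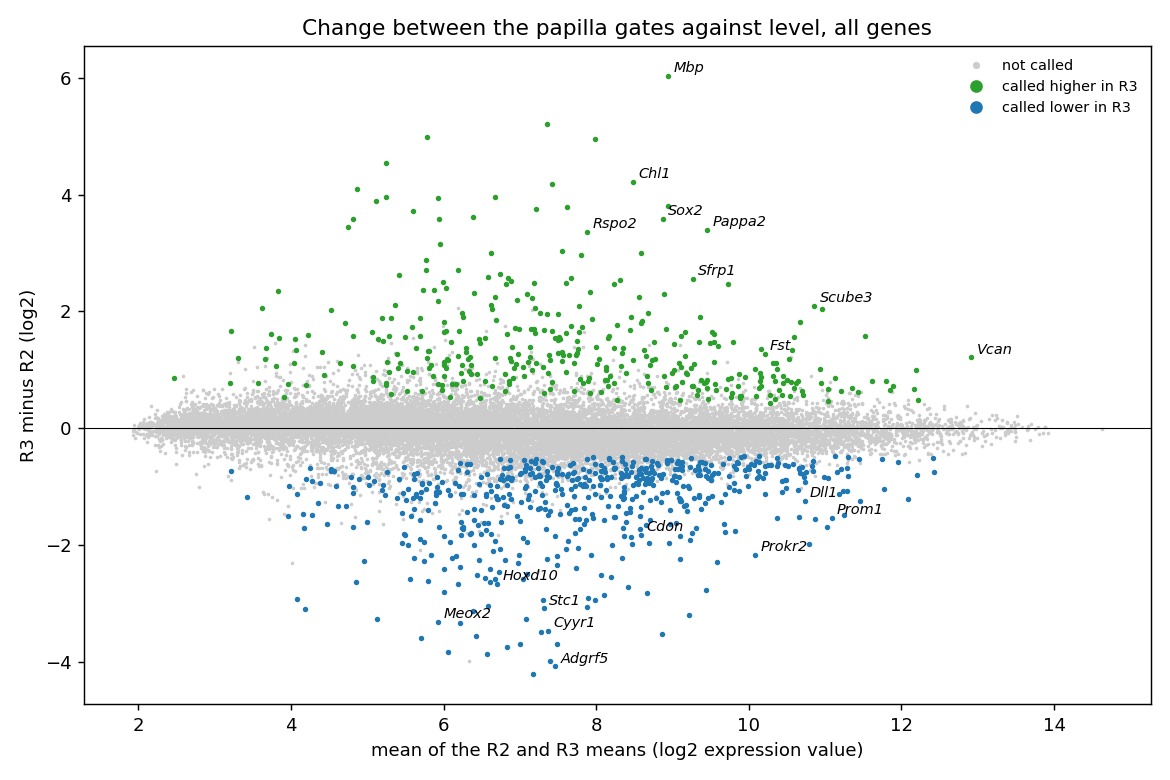
Difference of the gate means (R3 minus R2, log2) of each gene against the mean of its R2 and R3 means (log2 expression value); green points are the 358 genes called higher in R3, blue points the 557 called lower and grey points the rest. The largest rises and falls lie at middle levels, and at the bright end Vcan and Scube3 rose and Prokr2 and Dll1 fell.

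Papilla genes are described first. Of 49 measured genes known from the dermal papilla, 15 were higher in R3 and 8 lower, with a median change of 0.28. The count of higher genes was 9 to 13 and that of lower genes 6 to 8 with 1 array left out, the 9 coming without the R3 array of mouse 2 or without that of mouse 4. The summed level of the list was 16.56 to 16.69 in R3, 16.35 to 16.42 in R2 and 15.36 to 15.41 in R1 (log2), so R2 and R3 were above R1. This list was chosen with earlier results of these data known and is no independent evidence of a direction. Several defining papilla genes were not called. Corin, a papilla protease, read 9.37, 9.42 and 9.56 in R2 and 9.72, 10.14 and 9.98 in R3 (adjusted p = 0.247), against 5.93 ± 0.43 in R1. Alpl, the alkaline phosphatase used to stain papillae, missed the threshold narrowly although its arrays did not overlap, with 9.18, 9.20 and 9.06 in R2 and 10.38, 10.36 and 10.12 in R3 (log2 difference 1.14, standard error 0.29, adjusted p = 0.0573). With a term for the mouse it was called (adjusted p = 0.0425). Tbx18, a papilla transcription factor, had a change of 0.02 (standard error 0.16) and Prdm1, a repressor of early papilla precursors, of -0.26 (standard error 0.16).

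Signal and matrix genes that rose included Pappa2, Scube3, Sostdc1, Hhip and Vcan. For Pappa2 the R2 arrays gave 7.89, 7.65 and 7.72 and the R3 arrays 11.10, 11.39 and 10.96. It encodes a protease that releases insulin-like growth factors from binding proteins. Pappa2 was 10.5-fold higher in R3, a log2 difference of 3.40 (standard error 0.16, adjusted p = 4.33e-06), with no overlap of the arrays. R1 stood at 8.21 ± 0.19, near R2, so R3 alone of the gates was high. Scube3 read 9.87, 9.73 and 9.83 in R2 and 12.09, 11.995 and 11.62 in R3. Scube3 encodes a secreted EGF-repeat protein of the hedgehog and BMP field. Scube3 thus rose 4.27-fold (log2 difference 2.09, standard error 0.20, adjusted p = 0.000351), every R3 array lying above every R2 array. Its levels rose from R1 (7.57 ± 0.39) through R2 to R3. Vcan stood at 12.35, 12.23 and 12.34 in R2 and at 13.63, 13.63 and 13.30 in R3. Versican, its product, is the matrix proteoglycan long used to mark papillae. Vcan was 2.32-fold higher in R3, a log2 difference of 1.21 (standard error 0.14, adjusted p = 0.000929), with no overlap of the arrays. R1, at 11.99 ± 0.15, was the lowest gate in the mean.

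**Figure D2:**
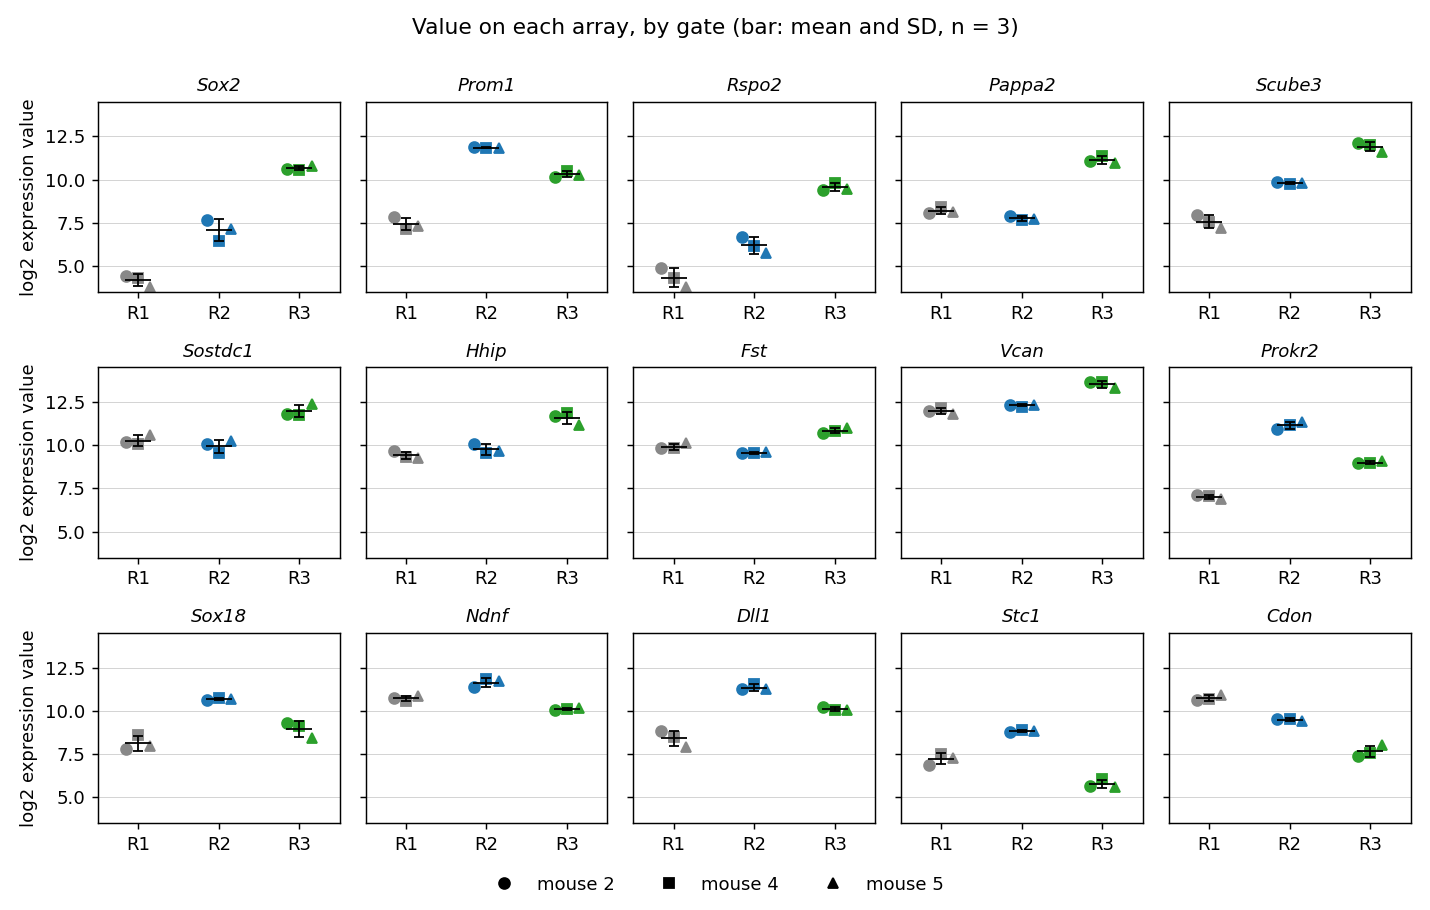
Log2 expression value on each array for 15 genes in R1, R2 and R3; the symbol gives the mouse, and the bar the mean and SD of the 3 arrays. In Rspo2, Pappa2, Scube3, Sostdc1, Hhip, Fst and Vcan every R3 array lies above every R2 array, and in Prokr2, Sox18, Ndnf, Dll1, Stc1 and Cdon every R3 array lies below.

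The genes lower in R3 included the receptor genes Prokr2 and Cxcr4, the transcription factor gene Sox18 and Ndnf. In R2 Prokr2 measured 10.96, 11.16 and 11.37, and in R3 8.95, 8.95 and 9.10. Its product is a G-protein-coupled receptor for prokineticins. Prokr2 thus fell in R3, where it was 4.47-fold lower (log2 difference -2.16, standard error 0.14, adjusted p = 2.49e-05) and every array lay below the R2 arrays. The R3 arrays lay between R2 and R1 (7.02 ± 0.11). For Sox18 the R2 arrays gave 10.65, 10.77 and 10.69 and the R3 arrays 9.28, 9.12 and 8.43. Sox18 was 3.39-fold lower in R3, a log2 difference of -1.76 (standard error 0.25, adjusted p = 0.00362), with no overlap of the arrays. Sox18 is also an endothelial transcription factor, and its part in the endothelial pattern given below was not tested. Ndnf read 11.37, 11.84 and 11.71 in R2 and 10.04, 10.08 and 10.15 in R3. Ndnf encodes a secreted neurotrophic factor. Ndnf thus fell in R3, where it was 2.92-fold lower (log2 difference -1.55, standard error 0.15, adjusted p = 0.000328) and every array lay below the R2 arrays. R1 stood at 10.72 ± 0.14, between the gates. Cxcr4, the chemokine receptor, read 12.54, 12.59 and 12.70 in R2 and 11.85, 11.79 and 11.79 in R3, a smaller step at a high level (1.75-fold lower, adjusted p = 0.00517).

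Promoter windows are shown for 4 genes, the gate gene Sox2, the growth factor gene Fgf7, the Notch ligand gene Dll1 and the adhesion gene Chl1. SOX proteins are known to bind short stretches of a few letters with an ACAA core. The windows hold 250 bases before to 50 after a start (RefSeq, GRCm38.p6), 5′ to 3′ on the gene's strand, and capitals mark the letters ACAAAG with their reverse complement CTTTGT, and the letters ACAATG with theirs, CATTGT. The 4 were chosen after the matches were seen, as genes with a match, and further windows that were read are not printed. The letters ACAAAG overlap those known for TCF and LEF factors.
Sox2, chr3:34649745-34650044, plus strand: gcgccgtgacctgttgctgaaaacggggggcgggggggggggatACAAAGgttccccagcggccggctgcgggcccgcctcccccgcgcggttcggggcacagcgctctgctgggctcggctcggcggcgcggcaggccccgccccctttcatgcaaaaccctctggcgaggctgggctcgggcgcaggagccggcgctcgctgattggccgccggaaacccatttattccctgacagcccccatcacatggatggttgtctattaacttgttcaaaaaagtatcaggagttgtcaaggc
Fgf7, chr2:126034408-126034707, plus strand: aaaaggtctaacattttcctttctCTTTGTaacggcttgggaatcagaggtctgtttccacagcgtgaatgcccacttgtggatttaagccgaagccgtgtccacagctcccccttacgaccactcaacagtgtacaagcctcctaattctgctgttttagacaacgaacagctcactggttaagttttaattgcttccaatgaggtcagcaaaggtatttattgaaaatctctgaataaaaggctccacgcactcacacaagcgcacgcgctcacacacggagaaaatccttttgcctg
Dll1, chr17:15376883-15377182, minus strand: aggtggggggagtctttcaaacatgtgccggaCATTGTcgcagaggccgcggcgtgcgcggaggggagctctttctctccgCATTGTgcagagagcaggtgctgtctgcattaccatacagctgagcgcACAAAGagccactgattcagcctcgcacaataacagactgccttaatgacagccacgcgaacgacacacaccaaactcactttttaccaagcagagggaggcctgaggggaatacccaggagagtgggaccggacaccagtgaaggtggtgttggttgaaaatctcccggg
Chl1, chr6:103510626-103510925, plus strand: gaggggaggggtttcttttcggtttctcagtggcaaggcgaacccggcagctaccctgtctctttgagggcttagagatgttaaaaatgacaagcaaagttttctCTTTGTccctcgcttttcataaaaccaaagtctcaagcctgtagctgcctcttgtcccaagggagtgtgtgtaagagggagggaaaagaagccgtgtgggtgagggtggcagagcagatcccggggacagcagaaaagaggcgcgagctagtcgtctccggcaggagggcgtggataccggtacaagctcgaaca
Dll1 held 3 matches in this window, and its other listed start, downstream, held 0. The windows of Scube3, Hhip, Pappa2, Prokr2, Prdm1 and Isl1 held 0. Of all 32851 windows 28.6% held a match, over 18109 windows of tested genes 23.3%, over 368 windows of genes higher in R3 23.9% and over 546 windows of genes lower in R3 21.1%. The shares of the called genes thus lay within a few points of that of the tested genes, and a match is a description of letters, not a site.

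Wnt pathway genes changed in both directions, and over all genes 1.97% were higher and 3.06% lower. Of 40 measured ligands, receptors and R-spondins 4 were higher and 3 lower, of 19 inhibitors 2 higher and 3 lower, and of 24 nuclear factors and targets 1 higher and 2 lower. Rspo2 stood at 6.71, 6.16 and 5.73 in R2 and at 9.40, 9.81 and 9.48 in R3. R-spondin 2 is a secreted enhancer of Wnt signalling that acts through Lgr receptors. Rspo2 was 10.3-fold higher in R3, a log2 difference of 3.36 (standard error 0.30, adjusted p = 0.000224), with no overlap of the arrays. Its R1 mean was 4.32 ± 0.54, under background. Among its receptors Lgr4 read 10.07, 10.24 and 10.43 in R2 and 10.84, 10.92 and 11.04 in R3 (1.61-fold higher, adjusted p = 0.0188), a call lost without the R2 array of mouse 2 or 4 or the R3 array of mouse 4 or 5 (adjusted p up to 0.0729).

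The Frizzled receptor genes that were called were lower. In R2 Fzd6 measured 8.94, 8.44 and 8.36, and in R3 6.40, 5.97 and 6.81. Fzd6 thus fell in R3, where it was 4.55-fold lower (log2 difference -2.19, standard error 0.26, adjusted p = 0.00112) and every array lay below the R2 arrays. Fzd4 was 2.94-fold lower (adjusted p = 0.00193), with 8.57, 8.71 and 8.39 in R2 and 6.74, 6.86 and 7.41 in R3. Fzd4 is also known from endothelium.

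Among secreted inhibitors Sfrp1 and Sostdc1 rose while Dkk1 fell. For Sfrp1 the R2 arrays gave 7.76, 7.90 and 8.29 and the R3 arrays 10.30, 10.56 and 10.76. It encodes a soluble Frizzled-related protein. Sfrp1 was 5.88-fold higher in R3, a log2 difference of 2.56 (standard error 0.27, adjusted p = 0.000634), with no overlap of the arrays. Sostdc1 read 10.05, 9.53 and 10.24 in R2 and 11.83, 11.76 and 12.37 in R3. Sostdc1 encodes a secreted antagonist of both BMP and Wnt signals. Sostdc1 thus rose 4.14-fold (log2 difference 2.05, standard error 0.24, adjusted p = 0.000999), every R3 array lying above every R2 array. Dkk1 stood at 8.31, 8.47 and 8.83 in R2 and at 7.34, 7.63 and 7.73 in R3. Dkk1 was 1.96-fold lower in R3, a log2 difference of -0.97 (standard error 0.17, adjusted p = 0.00925), with no overlap of the arrays. Dkk1 encodes an antagonist of the Lrp co-receptors. The ligand Wnt5a was not called, with 10.995, 11.36 and 11.58 in R2 and 11.38, 11.38 and 11.07 in R3 (log2 difference -0.03, standard error 0.17). The nuclear factor Lef1 read 10.36, 10.86 and 10.92 and 11.34, 11.45 and 11.20 (adjusted p = 0.0707). The Wnt target Axin2 was 1.5-fold lower (adjusted p = 0.0152), a call lost without the R2 array of mouse 2 or 4 or the R3 array of mouse 4 (adjusted p up to 0.0622). Tle2, a corepressor, was 2.09-fold higher (adjusted p = 0.00506). With 1 array left out the counts for ligands and receptors were 1 to 3 higher and 2 to 3 lower. The 1 came without the R2 array of mouse 2 or 4 or the R3 array of mouse 4. The count of lower inhibitors was 1 without the R2 array of mouse 4 or 5 or the R3 array of mouse 2 or 4. That of lower nuclear factors and targets was 0 without the R2 array of mouse 2 or 4 or the R3 array of mouse 4, and 1 without any other array or with a term for the mouse.

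In the BMP list, with 40 genes measured, 4 were higher and 3 lower, and the higher ones were antagonists apart from Bmp6, which kept its call without the R2 array of mouse 2 but lost it without any other of the 6 arrays (adjusted p up to 0.111). In R2 Fst measured 9.53, 9.55 and 9.63, and in R3 10.71, 10.82 and 11.003. Follistatin binds activins and BMPs. Fst thus rose 2.41-fold (log2 difference 1.27, standard error 0.13, adjusted p = 0.000605), every R3 array lying above every R2 array. Sostdc1 is the next antagonist, given above. Grem1, which encodes another antagonist, was among the lower genes, with 9.09, 9.09 and 8.89 in R2 and 8.66, 8.16 and 8.01 in R3 (1.68-fold lower, adjusted p = 0.0434), and it kept its call only without the R3 array of mouse 2 (adjusted p up to 0.141 without another). The ligands Bmp4 and Bmp7, known for papilla signalling, had changes of -0.14 (standard error 0.14) and 0.01 (standard error 0.13) and were not called. Bmp7 read 9.91, 10.05 and 9.90 in R2 and 9.84, 10.08 and 9.97 in R3, against 7.42 ± 0.13 in R1, so both papilla gates lay above R1. Without the R2 array of mouse 4 or 5 or the R3 array of mouse 2 or 4, 2 BMP genes were called higher, while 0 were called lower without the R2 array of mouse 2 and 1 without the R2 or R3 array of mouse 4.

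Of 25 TGF-beta and activin genes 1 was higher and 2 lower, beside 1.97% and 3.06% of all genes. The higher one, Ltbp1, lost its call without the R2 array of mouse 2 or the R3 array of mouse 2 or 4 (adjusted p up to 0.0578). Inhba, the activin A subunit, was not called, at 12.50, 12.48 and 12.27 in R2 and 12.51, 12.53 and 12.46 in R3 (log2 difference 0.08, standard error 0.13), and R1 stood at 9.34 ± 0.15. The other activin subunit gene, Inhbb, was lower in R3. For Inhbb the R2 arrays gave 8.35, 8.21 and 8.22 and the R3 arrays 6.56, 6.97 and 6.86. Inhbb was 2.75-fold lower in R3, a log2 difference of -1.46 (standard error 0.15, adjusted p = 0.00047), with no overlap of the arrays. Ltbp2 read 8.06, 7.91 and 7.81 in R2 and 5.51, 5.67 and 5.87 in R3. Its product is a latent TGF-beta binding protein of elastic fibres. Ltbp2 thus fell in R3, where it was 4.74-fold lower (log2 difference -2.24, standard error 0.14, adjusted p = 2.36e-05) and every array lay below the R2 arrays. The R1 means of Inhbb and Ltbp2 were 10.14 ± 0.17 and 8.53 ± 0.14, above both papilla gates.

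Among 29 FGF genes 3 were higher and 2 lower. The lower count was 1 without the R2 array of mouse 2 or 4 or any R3 array and with a term for the mouse, and the higher count was 1 without the R3 array of mouse 2. Fgf7 stood at 9.63, 8.80 and 8.75 in R2 and at 10.81, 10.58 and 10.22 in R3. Keratinocyte growth factor, its product, acts on the epithelial receptor. Fgf7 was 2.78-fold higher in R3, a log2 difference of 1.47 (standard error 0.33, adjusted p = 0.0334), with no overlap of the arrays. The call was lost without the R2 array of mouse 4 or 5 or the R3 array of mouse 2 or 4 (adjusted p up to 0.12). In R2 Fgf14 measured 6.48, 5.48 and 6.16, and in R3 8.27, 8.44 and 8.12. Fgf14 encodes an intracellular FGF that binds sodium channels. Fgf14 thus rose 4.71-fold (log2 difference 2.24, standard error 0.30, adjusted p = 0.00247), every R3 array lying above every R2 array. Fgf10 encodes a papilla ligand for the same epithelial receptor as Fgf7. It had a change of 0.19 (standard error 0.21). Among the receptor genes Fgfr4 was lower. For Fgfr4 the R2 arrays gave 6.74, 7.81 and 7.67 and the R3 arrays 5.19, 3.34 and 5.30. Fgfr4 was at least 3.86-fold lower in R3, with a fitted log2 difference of -2.79 (standard error 0.48, adjusted p = 0.0091), with no overlap of the arrays. The 3 R3 arrays of this receptor lay under background.

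Hedgehog genes changed in both directions. Of 23 measured, 5 were higher and 3 lower, with 3 to 4 higher and 3 to 6 lower when 1 array was left out. The 6 came without the R2 array of mouse 5, and the 3 higher without that array or the R3 array of mouse 4. Hhip read 10.09, 9.53 and 9.66 in R2 and 11.66, 11.89 and 11.18 in R3. Hhip is a membrane antagonist and target of hedgehog signalling. Hhip thus rose 3.53-fold (log2 difference 1.82, standard error 0.22, adjusted p = 0.00112), every R3 array lying above every R2 array. Dhh stood at 7.05, 7.25 and 6.69 in R2 and at 9.53, 9.38 and 9.48 in R3. Desert hedgehog is known as a ligand made by Schwann cells. Dhh was 5.53-fold higher in R3, a log2 difference of 2.47 (standard error 0.29, adjusted p = 0.00109), with no overlap of the arrays. Its place among the glial genes is given below.

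Of the co-receptor genes of the pathway, Cdon and Gas1 were lower in R3, and Boc was not called (log2 difference -0.54, adjusted p = 0.118). In R2 Cdon measured 9.55, 9.54 and 9.40, and in R3 7.40, 7.59 and 8.02. Cdon thus fell in R3, where it was 3.54-fold lower (log2 difference -1.82, standard error 0.17, adjusted p = 0.000266) and every array lay below the R2 arrays. Gas1 encodes another such co-receptor. For Gas1 the R2 arrays gave 10.09, 10.16 and 10.05 and the R3 arrays 8.82, 8.85 and 9.17. Gas1 was 2.22-fold lower in R3, a log2 difference of -1.15 (standard error 0.16, adjusted p = 0.0024), with no overlap of the arrays. Cdon and Gas1 were highest in R1, at 10.74 ± 0.15 and 11.27 ± 0.24, and lowest in R3. The receptor genes Ptch1 and Smo were not called, with changes of 0.06 (standard error 0.12) and -0.06 (standard error 0.13). Gli1, a transcriptional target, read 10.85, 10.79 and 10.64 in R2 and 10.11, 9.93 and 10.40 in R3 (log2 difference -0.61, standard error 0.19, adjusted p = 0.105).

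Notch genes were lower in R3 more often than higher, with 11 of 31 called lower, 1 higher and a median change of -0.43. The count of lower calls fell to 4 without the R2 array of mouse 2, the R2 array of mouse 4 or the R3 array of mouse 2, and to 6 without the R2 array of mouse 5 or the R3 array of mouse 4. The higher gene, Hey2, lost its call without the R2 array of mouse 2 or 5 or the R3 array of mouse 2 or 4 (adjusted p up to 0.0735). Dll1 read 11.24, 11.56 and 11.25 in R2 and 10.23, 10.05 and 10.05 in R3. Dll1 encodes a Notch ligand. Dll1 thus fell in R3, where it was 2.36-fold lower (log2 difference -1.24, standard error 0.21, adjusted p = 0.00815) and every array lay below the R2 arrays. R1 stood at 8.40 ± 0.44, below both papilla gates. Heyl stood at 10.22, 10.60 and 10.64 in R2 and at 9.35, 8.57 and 8.64 in R3. Heyl encodes a Notch-responsive repressor. Heyl was 3.11-fold lower in R3, a log2 difference of -1.64 (standard error 0.23, adjusted p = 0.0029), with no overlap of the arrays. In R2 Hes5 measured 8.96, 8.99 and 9.41, and in R3 7.78, 7.26 and 8.22. Hes5, another such target, was 2.58-fold lower in R3 (adjusted p = 0.0309) and lost its call without the R2 array of mouse 2, 4 or 5 or the R3 array of mouse 2 or 4 (adjusted p up to 0.103). Jag1, another ligand gene, had a change of 0.07 (standard error 0.14) and was not called. Notch4, also lower, is an endothelial gene. Dll4, an endothelial ligand gene, was lower too, a call lost without the R2 array of mouse 2 or 5 or the R3 array of mouse 4 (adjusted p up to 0.0805).

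Of 23 IGF genes 2 were higher and 4 lower. Besides Pappa2, the binding protein gene Igfbp5 was higher. For Igfbp5 the R2 arrays gave 9.10, 8.80 and 8.51 and the R3 arrays 10.51, 9.92 and 10.44. Igfbp5 thus rose 2.8-fold (log2 difference 1.48, standard error 0.24, adjusted p = 0.00605), every R3 array lying above every R2 array. Both IGF ligand genes were lower. Igf1 read 10.34, 9.89 and 9.94 in R2 and 8.79, 9.22 and 8.61 in R3. Igf1 was 2.28-fold lower in R3, a log2 difference of -1.19 (standard error 0.20, adjusted p = 0.00868), with no overlap of the arrays. Igf2, the ligand of fetal growth, followed. Igf2 stood at 12.28, 12.28 and 12.31 in R2 and at 11.12, 11.41 and 11.26 in R3. Igf2 thus fell in R3, where it was 2.04-fold lower (log2 difference -1.03, standard error 0.11, adjusted p = 0.000795) and every array lay below the R2 arrays. Htra1, a secreted protease that cuts IGF binding proteins, was 2.78-fold lower (adjusted p = 0.000896). In R2 Stc1 measured 8.78, 8.90 and 8.87, and in R3 5.66, 6.03 and 5.62. Stanniocalcin 1 is a secreted glycoprotein, and its family is known to inhibit the pappalysins. Stc1 was 8.43-fold lower in R3, a log2 difference of -3.08 (standard error 0.18, adjusted p = 1.54e-05), with no overlap of the arrays. Stc1 and Pappa2 thus differed in opposite directions, with no overlap between the arrays of the gates in either.

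Axon guidance genes, a family also used by mesenchyme, changed in both directions: of 59 measured 6 were higher and 9 lower, the latter falling to 3 without the R2 array of mouse 2 or the R3 array of mouse 4 and to 4 without the R2 array of mouse 4 or 5 or the R3 array of mouse 2. For Unc5c the R2 arrays gave 7.57, 7.07 and 6.46 and the R3 arrays 9.50, 9.67 and 9.57. Unc5c encodes a netrin receptor. Unc5c thus rose 5.83-fold (log2 difference 2.54, standard error 0.33, adjusted p = 0.00175), every R3 array lying above every R2 array. Dcc, another netrin receptor, was 2.42-fold higher (adjusted p = 0.00411), and Draxin, a secreted netrin partner, 2.35-fold higher (adjusted p = 0.00491). Draxin read 8.29, 8.72 and 8.62 in R2 and 9.99, 9.94 and 9.39 in R3 against 6.06 ± 0.14 in R1. Among semaphorins, Sema3b and Sema3e were higher and Sema3a and Sema7a lower. Sema3d, Sema3g and Sema5a were also called lower, and each lost its call without at least 1 of the 6 arrays. Sema7a read 9.52, 9.31 and 9.53 in R2 and 7.10, 6.68 and 6.98 in R3. Sema7a was 5.81-fold lower in R3, a log2 difference of -2.54 (standard error 0.14, adjusted p = 1.31e-05), with no overlap of the arrays. Sema3a encodes a secreted repellent of axons. Sema3a stood at 9.70, 8.95 and 9.14 in R2 and at 8.07, 7.86 and 7.82 in R3. Sema3a thus fell in R3, where it was 2.54-fold lower (log2 difference -1.34, standard error 0.20, adjusted p = 0.00398) and every array lay below the R2 arrays.

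**Figure D3:**
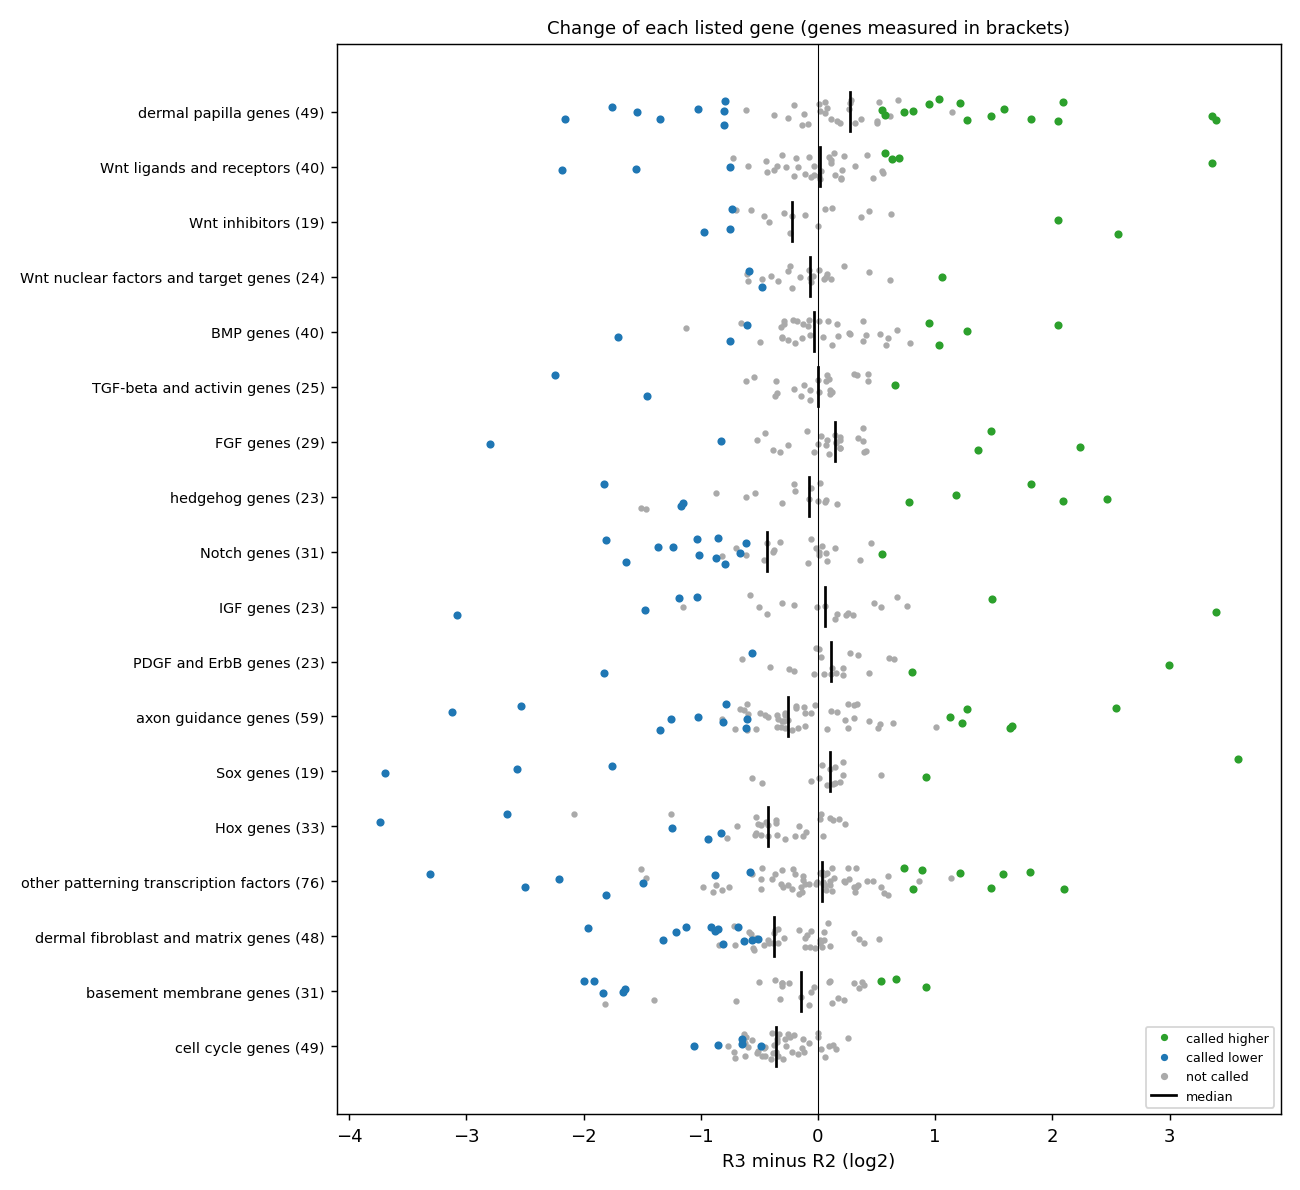
Difference of the gate means (R3 minus R2, log2) of each measured gene of 18 lists, 1 point a gene; green and blue points were called higher and lower, grey points were not called, and the bar is the median of the list. The Notch, Hox, cell cycle and fibroblast lists have medians between -0.43 and -0.36, and the papilla list has a median of 0.28.

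Transcription factor genes of the Sox, Hox and other patterning families were examined next. Of 19 Sox genes, Sox10 and the gate gene Sox2, whose rise follows from the sort, were higher and Sox18, Sox7 and Sox17 lower. Sox9, Sox4 and Sox11, genes of hair follicle and mesenchyme, were not called, with changes of 0.01, 0.19 and -0.48. Of 33 Hox genes, which encode positional identity along the body axis, 0 were higher and 5 lower by limma, with a median of -0.43 (0 higher and 18 lower at an unadjusted p under 0.05). The 5 were 3 without the R2 or R3 array of mouse 4 and 8 without the R2 array of mouse 5. In R2 Hoxd10 measured 8.37, 7.93 and 7.79, and in R3 5.02, 5.75 and 5.35. Hoxd10 was 6.3-fold lower in R3, a log2 difference of -2.66 (standard error 0.22, adjusted p = 0.000137), with no overlap of the arrays. The R3 arrays of Hoxd10 thus lay close to background. For Hoxd9 the R2 arrays gave 9.77, 9.69 and 9.69 and the R3 arrays 8.69, 8.43 and 8.31. Hoxd9 thus fell in R3, where it was 2.36-fold lower (log2 difference -1.24, standard error 0.19, adjusted p = 0.00491) and every array lay below the R2 arrays. Those of Hoxd9 were well above it. Hoxb4 was 1.92-fold lower (adjusted p = 0.0025). Hoxd13 had the largest spread of the called Hox genes, with 9.34, 9.90 and 6.83 in R2, and its call was lost without the R2 array of mouse 2 or 4 or the R3 array of mouse 4 or 5 (adjusted p up to 0.069).

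Of 76 other patterning genes 8 were higher and 7 lower. Nr2f1 read 7.03, 6.83 and 6.30 in R2 and 8.70, 8.36 and 9.40 in R3. It encodes an orphan nuclear receptor. Nr2f1 was 4.29-fold higher in R3, a log2 difference of 2.10 (standard error 0.30, adjusted p = 0.00316), with no overlap of the arrays. Foxd1, known from condensing dermis, was 1.66-fold higher at a high level, with 9.82, 9.74 and 9.81 in R2 and 10.56, 10.37 and 10.63 in R3 (adjusted p = 0.00769). Meox2 stood at 7.39, 7.69 and 7.68 in R2 and at 4.25, 3.97 and 4.61 in R3. Meox2 and Meox1 encode homeobox factors of mesoderm. Meox2 thus fell in R3, where it was at least 4.38-fold lower (fitted log2 difference -3.31, standard error 0.18, adjusted p = 1.25e-05) and every array lay below the R2 arrays. Meox1 was 5.66-fold lower (adjusted p = 0.00167), and Osr2, an odd-skipped factor of mesenchyme, 2.81-fold lower (adjusted p = 0.000293). The lower count was 3 without the R2 array of mouse 4 or the R3 array of mouse 2 or 4, 4 without the R2 array of mouse 2 and 11 without that of mouse 5. Meox1, Meox2 and Osr2 remained called in each.

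Fibroblast and matrix genes that were called were lower in R3. Of 48 measured genes 0 were higher and 12 lower by limma, with a median of -0.38 (0 higher and 24 lower at an unadjusted p under 0.05), and 6 were lower without the R2 array of mouse 2 or the R3 array of mouse 4 and 7 without the R3 array of mouse 2. With a term for the mouse 8 were lower. The summed level was 17.54 to 17.58 in R1, 17.10 to 17.15 in R2 and 16.88 to 16.95 in R3, so the gates were ordered without overlap. In R2 Ogn measured 10.07, 10.03 and 9.70, and in R3 7.72, 7.97 and 8.24. Osteoglycin, like Lum and Dpt, is a small matrix protein of the dermis. Ogn was 3.89-fold lower in R3, a log2 difference of -1.96 (standard error 0.17, adjusted p = 0.000171), with no overlap of the arrays. Dpt was 2.18-fold lower (adjusted p = 0.00653) and Lum 1.89-fold lower (adjusted p = 0.0108). Neither Col1a1, the main fibrillar collagen, nor Pdgfra, the pan-fibroblast receptor, was called. Col1a1 read 13.23, 13.29 and 13.46 in R2 and 13.47, 13.36 and 13.45 in R3, and Pdgfra 10.49, 10.64 and 10.66 and 10.64, 10.62 and 10.68.

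Of 31 measured basement membrane genes 3 were higher and 5 lower, or 8 lower with a term for the mouse. For Egfl6 the R2 arrays gave 10.04, 10.08 and 10.43 and the R3 arrays 8.09, 8.11 and 8.61. Npnt read 10.06, 10.40 and 9.59 in R2 and 8.28, 7.74 and 8.52 in R3. Egfl6 and nephronectin are ligands of the integrin that carries the Itga8 subunit, laid down at the follicle's edge. Egfl6 thus fell in R3, where it was 3.77-fold lower (log2 difference -1.91, standard error 0.24, adjusted p = 0.0017) and every array lay below the R2 arrays. Npnt was 3.56-fold lower in R3, a log2 difference of -1.83 (standard error 0.25, adjusted p = 0.00251), with no overlap of the arrays. Smoc1 was 3.12-fold lower (adjusted p = 0.00765), with 8.66, 8.74 and 8.57 in R2 and 5.70 ± 0.63 in R1. The epithelial anchoring genes Col7a1 and Lama3 were 3.16-fold and at least 2.11-fold lower (adjusted p = 0.0018 and 0.00294). The 3 higher genes, Col15a1, Lama4 and Fras1, each lost their call without at least 1 array, and 0 of them were called without the R2 array of mouse 2 or 5 or the R3 array of mouse 4.

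Among genes bright in both gates and outside the lists, Sulf1, Ikzf4, Chodl and Egfl8 rose. Sulf1 stood at 10.95, 10.75 and 10.49 in R2 and at 12.29, 12.33 and 12.31 in R3. Sulf1 removes sulfate groups from heparan sulfate outside the cell and so alters Wnt and FGF signalling. Sulf1 thus rose 2.99-fold (log2 difference 1.58, standard error 0.15, adjusted p = 0.00033), every R3 array lying above every R2 array. In R2 Ikzf4 measured 10.03, 9.77 and 9.64, and in R3 11.23, 11.32 and 11.58. It encodes a zinc finger factor of the Ikaros family. Ikzf4 was 2.96-fold higher in R3, a log2 difference of 1.56 (standard error 0.22, adjusted p = 0.00326), with no overlap of the arrays. Falls of this kind included Epas1, Tgm2, Cav1 and Apold1, genes also known from endothelium. For Epas1 the R2 arrays gave 11.72, 11.79 and 11.80 and the R3 arrays 9.30, 9.90 and 10.19. The hypoxia-inducible factor 2 alpha is its product. Epas1 thus fell in R3, where it was 3.93-fold lower (log2 difference -1.98, standard error 0.20, adjusted p = 0.000491) and every array lay below the R2 arrays. Adamts18 read 10.05, 10.11 and 10.27 in R2 and 8.20, 8.37 and 8.51 in R3. It encodes a secreted metalloprotease. Adamts18 was 3.44-fold lower in R3, a log2 difference of -1.78 (standard error 0.14, adjusted p = 0.000104), with no overlap of the arrays. R1 stood at 6.69 ± 0.18, so R2 was the highest of the gates.

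Cell cycle genes were mostly a little lower in R3 without passing the test. Of 49 measured 42 had a change below 0, beside 9448 of the 18193 genes, and the median was -0.36. By limma 5 were called lower and 0 higher (0 higher and 23 lower at an unadjusted p under 0.05). The count was 0 without the R2 array of mouse 2 or without that of mouse 4, 1 without the R3 array of mouse 2 or with the 6 arrays alone, and 3 without the R3 array of mouse 4 or 5. Mki67, the proliferation antigen, read 11.44, 11.49 and 11.40 in R2 and 10.92, 11.31 and 11.28 in R3 (log2 difference -0.27, standard error 0.13, adjusted p = 0.333). Of 15 cyclin-dependent kinase inhibitors and related genes 0 were called (limma; 1 higher and 6 lower at an unadjusted p under 0.05). Immediate early and stress genes, which can move with dissociation, had 3 of 29 lower and 0 higher (3 higher and 7 lower at an unadjusted p under 0.05), 1 being lower without the R2 array of mouse 2 or 4 or the R3 array of mouse 4, with a summed level of 17.08 to 17.13 in R2 and 17.03 to 17.09 in R3.

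Marker lists of Schwann cells and endothelium differed between the gates, and the summed level of each cell type list is given with its counts. These lists, too, were chosen with earlier results of these data known and are no independent evidence of a direction. Of 39 measured Schwann cell identity genes 22 were higher in R3 and 0 lower by limma (median 1.01; 27 higher and 1 lower at an unadjusted p under 0.05). Of 27 myelin genes 15 were higher and 0 lower (median 0.76; 17 higher and 0 lower at an unadjusted p under 0.05). The summed level of the identity list was 15.38 to 15.45 in R3, 14.97 to 15.02 in R2 and 15.05 to 15.09 in R1, and that of the myelin list 14.005 to 14.10, 12.62 to 12.84 and 13.00 to 13.11. Neither list's arrays overlapped between R2 and R3, which was also so for many other lists, among them the BMP, FGF and TGF-beta lists. Chl1 stood at 6.36, 6.31 and 6.46 in R2 and at 10.49, 10.73 and 10.57 in R3. Chl1 is a neural cell adhesion molecule of the L1 family. Chl1 thus rose 18.6-fold (log2 difference 4.22, standard error 0.17, adjusted p = 1.69e-06), every R3 array lying above every R2 array. Plekhb1 encodes a membrane-associated protein known from myelinating glia. In R2 Plekhb1 measured 5.84, 5.47 and 5.86, and in R3 9.44, 9.62 and 9.45. Plekhb1 was 13.7-fold higher in R3, a log2 difference of 3.78 (standard error 0.14, adjusted p = 1.42e-06), with no overlap of the arrays. Mag, a myelin adhesion protein, stood under background in R2 and R1. For Cnp the R2 arrays gave 6.60, 7.34 and 7.17 and the R3 arrays 10.95, 10.80 and 10.78. Cnp thus rose 14-fold (log2 difference 3.80, standard error 0.19, adjusted p = 6.71e-06), every R3 array lying above every R2 array. Cnp encodes an enzyme of myelin membranes, and its R1 level of 9.25 ± 0.16 lay between the gates.

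The glial transcription factor genes Sox10, Foxd3 and Pou3f1 were higher as well. Sox10 read 6.26, 6.26 and 6.50 in R2 and 7.50, 7.10 and 7.19 in R3. Sox10 defines the neural crest glial lineage. Sox10 was 1.9-fold higher in R3, a log2 difference of 0.92 (standard error 0.14, adjusted p = 0.00562), with no overlap of the arrays. Foxd3 is a factor of neural crest and glial precursors. Foxd3 stood at 4.45, 4.45 and 4.60 in R2 and at 6.50, 5.76 and 5.97 in R3. Foxd3 thus rose at least 1.54-fold (fitted log2 difference 1.58, standard error 0.18, adjusted p = 0.000866), every R3 array lying above every R2 array. In R2 Pou3f1 measured 6.38, 5.24 and 6.21, and in R3 8.66, 8.31 and 8.31. Pou3f1 is the factor of promyelinating Schwann cells. Pou3f1 was 5.58-fold higher in R3, a log2 difference of 2.48 (standard error 0.27, adjusted p = 0.000645), with no overlap of the arrays. Egr2, the factor of myelination, was not called (10.80, 10.85 and 10.58 in R2 and 11.23, 11.16 and 11.26 in R3, adjusted p = 0.0776). Sox10 in R1 stood at 6.79 ± 0.11, above R2. Sox2 itself belongs to the identity list, and its rise there follows from the sort. In bulk samples, fewer cells of a type and less RNA per cell cannot be told apart, and the part of glial cells in the rise of Dhh, Unc5c, Nr2f1, Fgf14 and the other genes above was not tested.

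Most measured blood endothelial genes were lower in R3, in a list chosen with earlier results of these data known. Of 74 measured blood endothelial genes 51 were lower in R3 and 1 higher, with a median of -1.64, and 46 to 49 were called lower with 1 array left out. The summed level was 15.43 to 15.56 in R2, 14.83 to 14.88 in R1 and 14.35 to 14.51 in R3, so R2 lay above R1 and R3 below R1. For Cdh5 the R2 arrays gave 9.18, 8.48 and 8.65 and the R3 arrays 6.17, 5.78 and 5.52. Cdh5 encodes the adherens junction cadherin that defines endothelium. Cdh5 thus fell in R3, where it was 7.7-fold lower (log2 difference -2.94, standard error 0.32, adjusted p = 0.000736) and every array lay below the R2 arrays. Kdr read 9.46, 9.49 and 9.44 in R2 and 7.38, 7.58 and 7.48 in R3. Kdr is the main VEGF receptor. Kdr was 3.95-fold lower in R3, a log2 difference of -1.98 (standard error 0.11, adjusted p = 1.38e-05), with no overlap of the arrays. Cyyr1 stood at 9.09, 9.004 and 9.20 in R2 and at 5.50, 5.77 and 5.63 in R3. Cyyr1 thus fell in R3, where it was 11-fold lower (log2 difference -3.46, standard error 0.13, adjusted p = 1.42e-06) and every array lay below the R2 arrays. Of the defining genes, Emcn lay under background on the 3 R3 arrays (4.18, 4.60 and 5.11), whereas Cdh5, Kdr and Pecam1 (6.03, 6.66 and 7.33) lay above it. The gene called higher was Nr2f2, a nuclear receptor that mesenchyme also carries, with 9.63, 9.78 and 9.74 in R2 and 10.62, 10.43 and 10.74 in R3, and its call was lost with the mean of all its probe sets.

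Lymphatic endothelial genes, 20 measured, had 7 lower and 2 higher, and the 7 became 4 without the R2 array of mouse 2 or the R3 array of mouse 2 or 4. The summed level was 13.61 to 13.71 in R2 and 13.18 to 13.34 in R3. In R2 Lyve1 measured 9.47, 9.43 and 9.41, and in R3 7.97, 7.62 and 7.56. Lyve1 was 3.29-fold lower in R3, a log2 difference of -1.72 (standard error 0.16, adjusted p = 0.000277), with no overlap of the arrays. Flt4, the lymphatic VEGF receptor, was 3.59-fold lower (adjusted p = 0.0016). The defining factor Prox1 was not called, with 7.14, 7.25 and 7.67 in R2 and 6.58, 6.87 and 6.96 in R3 (adjusted p = 0.112, or 0.049 with a term for the mouse). The 2 higher genes were Reln and Itga9, which are not confined to lymphatics. The part of endothelial cells in the lower levels of Sox18, Notch4, Fzd4, Epas1 and the other falls named here was not tested.

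Lists of other cell types held fewer calls. Over all genes 5.03% were called, and the leukocyte and melanocyte lists, at 5.41% and 5.56%, lay near that share. The adipocyte list, at 31.2%, the pericyte and smooth muscle list, at 16%, and the skeletal muscle list, at 13.6%, lay above it. Of 25 pericyte and smooth muscle genes 4 were lower and 0 higher by limma (0 higher and 7 lower at an unadjusted p under 0.05), 2 being lower without the R3 array of mouse 5, the R3 array of mouse 2 or any R2 array. Their changes were below 0 for 19 genes, beside 9448 of the 18193 genes, with a median of -0.23. Their summed level of 14.08 to 14.16 in R2 did not overlap the 13.88 to 13.97 of R3, as in many other lists. Rgs5, a pericyte marker, was not called (8.72, 8.64 and 9.57 in R2 and 8.57, 8.54 and 9.55 in R3). Of 38 keratinocyte genes 0 were called (4 higher and 1 lower at an unadjusted p under 0.05), and their summed level overlapped, at 12.60 to 12.86 in R2 and 12.38 to 13.13 in R3, far below the 15.12 to 15.63 of R1. Of 37 leukocyte genes 2 were lower, Csf2rb and Thy1, and 0 higher (2 higher and 8 lower at an unadjusted p under 0.05), and the summed levels overlapped (13.13 to 13.45 in R2 and 12.94 to 13.39 in R3). Csf2rb, a cytokine receptor subunit, was at least 10.5-fold lower (adjusted p = 6.71e-06), with 9.06, 8.72 and 8.76 in R2 and 4.92, 5.35 and 5.20 in R3. Of 18 melanocyte genes only Sox10, shared with glia, was called, and the summed levels overlapped at 11.77 to 12.03 in R2 and 11.89 to 12.11 in R3. Of 15 neuron genes 0 were called (4 higher and 4 lower at an unadjusted p under 0.05), with summed levels of 10.19 to 10.42 in R2 and 9.94 to 10.66 in R3. Of 6 erythroid genes 0 were called (0 higher and 0 lower at an unadjusted p under 0.05), with summed levels of 7.50 to 7.94 and 7.76 to 7.96. Single arrays moved these small counts: 4 leukocyte genes and 1 neuron gene were lower without the R3 array of mouse 5, 1 leukocyte gene and 2 melanocyte genes were higher without the R2 array of mouse 2, and 1 keratinocyte gene was higher without the R3 array of mouse 4. With a term for the mouse 1 keratinocyte gene was lower.

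Merkel cell genes, of which 5.26% were called beside 5.03% of all genes, are given because these cells are known to carry Sox2. Of 19 measured genes 0 were higher in R3 by limma and 1, Isl1, was lower (5 higher and 3 lower at an unadjusted p under 0.05), or 2 lower without the R2 array of mouse 5. The summed level was 10.65 to 11.25 in R2 and 10.41 to 10.81 in R3. The defining factors Atoh1 and Pou4f3 lay under background on all 6 arrays, Atoh1 at 4.13, 4.12 and 4.20 in R2 and 4.43, 4.32 and 4.20 in R3 and Pou4f3 at 4.26, 3.94 and 4.35 and 4.19, 4.50 and 4.36. For Isl1 the R2 arrays gave 9.57, 9.75 and 8.32 and the R3 arrays 6.97, 7.21 and 7.46. Isl1 encodes a LIM-homeodomain factor that is not confined to Merkel cells. Isl1 thus fell in R3, where it was 4-fold lower (log2 difference -2.002, standard error 0.33, adjusted p = 0.00803) and every array lay below the R2 arrays. Of 16 adipocyte genes 1 was higher and 4 lower, among them Pparg, the adipogenic regulator, at 2.68-fold lower (adjusted p = 0.00593), and their summed level was 13.53 to 13.80 in R2 and 12.89 to 13.14 in R3. Of 22 skeletal muscle genes 1 was higher and 2 lower, or 1 lower without the R2 array of mouse 2 or 4 or the R3 array of mouse 2, with summed levels of 11.34 to 11.60 in R2 and 10.76 to 10.96 in R3.

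**Figure D4:**
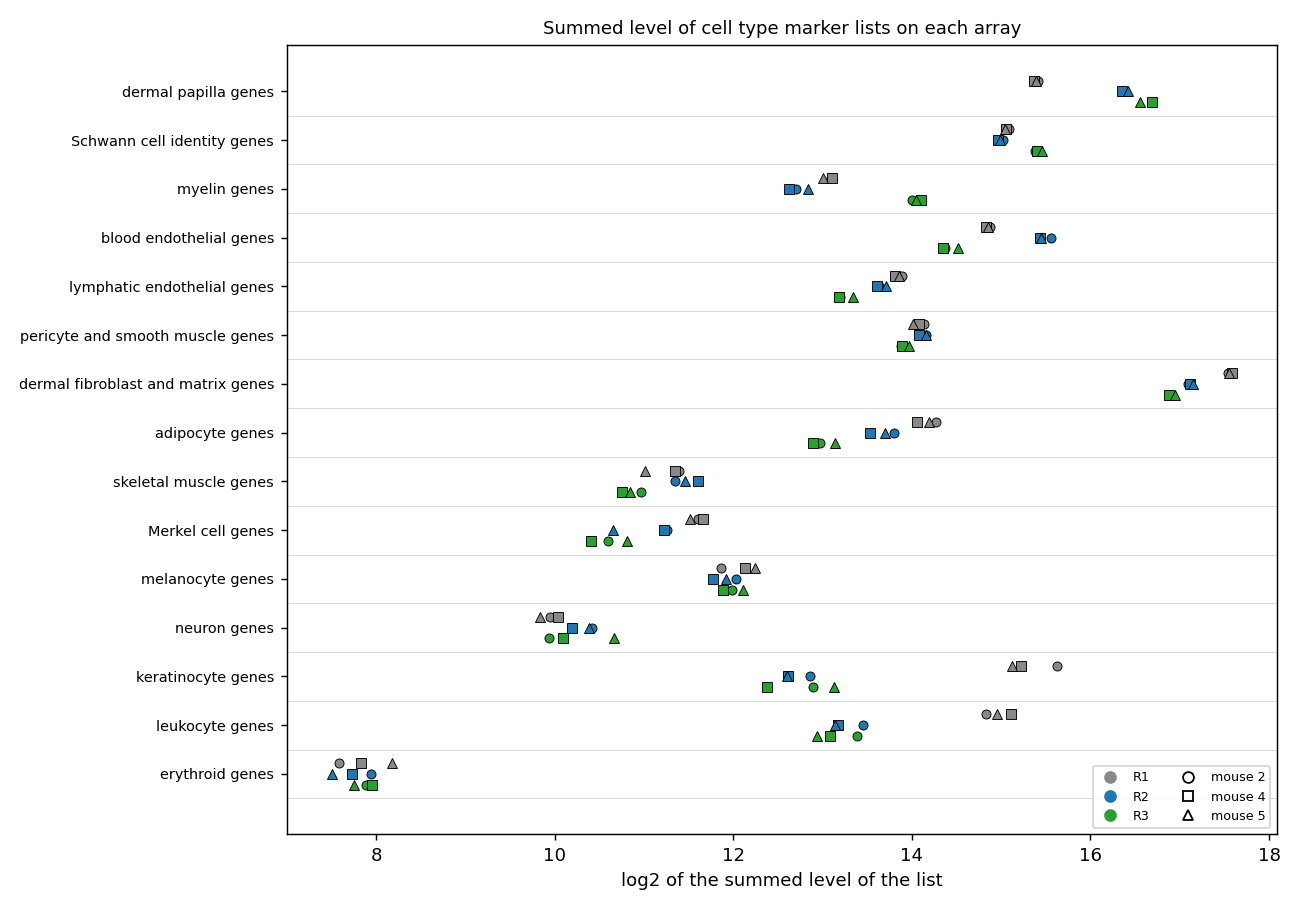
Log2 of the summed level of each cell type marker list on each of the 9 arrays (horizontal axis), with the gate in colour and the mouse as the symbol. The Schwann and myelin lists are highest in R3, the blood endothelial list is highest in R2 and lowest in R3, and the keratinocyte and leukocyte lists are highest in R1 and overlap between R2 and R3.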

How the data were processed

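RNA of 3 gates from 3 mice was isolated on columns, amplified with the WT-Ovation Pico system and hybridised to 1-colour arrays, per the labels' protocols. The deposited table gives 1 log2 value per probe set and array, made with RMA per the submitters' processing notes; version and software: not given in the sources used here. Amplification and the quantile step of RMA can make folds smaller and remove a shift common to all genes. Gene names came from the platform annotation: 34945 of 45101 had 1 gene symbol, 932 several and 9224 none, 64 controls were set aside, and 0 symbols were updated through RefSeq (GRCm38.p6). For each of 18193 genes the brightest probe set, by its mean of 9 arrays, was used. Differences were fitted with lmFit, contrasts.fit and eBayes of limma 3.58.1 (R 4.3.3) over all 9 arrays with 1 coefficient per gate, no block and no filter, and Benjamini-Hochberg adjustment over all genes. Standard errors are limma's moderated ones, in log2 units, and R1 levels are means ± SD (n = 3).

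Arrays with 1 number stem from 1 mouse, so the design is paired. Their deviations from the gate means correlated at 0.0068 to 0.0643 between R2 and R3 arrays of a mouse and at -0.0480 to 0.0346 between those of different mice. With the R1 arrays included, these ranges were 0.0068 to 0.1769 and -0.1573 to 0.0410. The fit was tested on simulated data for this comparison with 200 of 18193 genes changed, and recovered 16% of the 1.5-fold changes, 64% at 2-fold, 98% at 4-fold and 100% at 8-fold. The summed level of a list is the log2 of the sum of its members' linear values. The 35 gene lists and the genes compared were chosen with earlier results of these data known. Genes named are the 15 largest rises and falls, the 12 largest among genes whose gate means are both at least 8, up to 6 members per list by lowest p, and further list members given by value to complete a family; not all of them are discussed. Alternatives were the mouse as a replicate block, each of the 6 arrays left out, the 6 arrays alone, median centring, quantile normalization again, the mean of a gene's probe sets, genes above the median only, and a trend with robust variance. Tables and plots were made in Python 3.11.15 with matplotlib 3.10.9, numpy 2.4.6 and pandas 2.3.3.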

Additional observations from a re-analysis of the deposited data

How the results depend on the processing

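With the mouse as a replicate block the counts of the paired fit were 881 called genes, 362 higher and 519 lower, and 759 of the 915 genes were called in both fits. With 1 array left out, 582 to 813 genes were called, 251 to 306 of them higher and 317 to 507 lower; the lower count was 317 without the R2 array of mouse 2, 331 without the R2 array of mouse 4, 357 without the R3 array of mouse 2 and 336 without the R3 array of mouse 4. The other alternatives gave 749 to 1048 called genes, within 1.5 times of 915: 749 from the 6 arrays alone, 895 after median centring, 872 after renewed quantile normalization, 995 with mean probe sets, 874 among the brighter genes and 1048 with a trend and robust variance. No named gene that was called changed direction under any of these alternatives, and Jag1, which was not called, went to -0.01 with mean probe sets. Of the named genes, 9 lost their call with the block, 14 with the 6 arrays alone, 15 with mean probe sets, 7 after quantile normalization and 20 to 36 with 1 array left out. Of the genes given by value, the block changed the calls of Alpl and Prox1 only. With a trend and robust variance 19 fibroblast, 8 basement membrane and 6 stress genes were lower, and 5 Wnt nuclear factors and targets. The 6 arrays alone gave 2 higher BMP genes and 2 lower pericyte genes, quantile normalization 3 lower cell cycle genes, and mean probe sets 5 higher FGF genes and 2 higher Wnt ligands and receptors. Among the brighter genes, where fewer members were tested, 14 Schwann and 5 myelin genes were higher and 33 blood endothelial genes lower. Genes near or under background, among them Mag, Kcnj10, Hoxd10 and Emcn in the lower gate, have differences limited by that level.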

Other observations

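Members of some gene families outside the lists, chosen after their values were seen, were also called. Potassium channel genes had 7 of 84 higher in R3 and 4 lower, beside 1.97% and 3.06% of all genes, with a median change of 0.06. Kcna1, a subunit of axonal and glial channels, was 5.54-fold higher (limma log2 change 2.47, standard error 0.19, adjusted p = 9.84e-05), with 5.85, 5.53 and 5.36 in R2 and 7.97, 8.41 and 7.77 in R3. Kcnj10, an inward rectifier known from glia, read 4.78, 4.77 and 4.59 and 6.82, 5.95 and 6.04. Of 11 sodium channel genes only Scn7a was called, at 4.19, 4.79 and 3.47 in R2 and 7.55, 7.32 and 8.34 in R3 (adjusted p = 0.000979). The R1 means of Kcna1, Kcnj10 and Scn7a were 6.06, 4.69 and 5.86.

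Of 13 CXC chemokine genes 3 were called, all higher in R3, and over all genes 1.97% were higher and 3.06% lower. Of 18 CC chemokine genes 0 were called. Of 26 interferon-induced Ifit and Isg genes 0 were higher and 1 lower, as were 0 and 1 of 6 guanylate-binding protein genes. Cxcl10, an interferon-induced chemokine, read 9.35, 7.57 and 8.58 in R2 and 11.42, 10.29 and 11.19 in R3 (5.52-fold higher, adjusted p = 0.0112), against 9.95 ± 0.40 in R1. All 4 called Gimap genes of 8 measured, GTPases of lymphoid and endothelial cells, were lower in R3, among them Gimap6 at 9.54, 9.63 and 9.20 in R2 and 6.58, 6.23 and 6.75 in R3. Of 15 Adamts metalloprotease genes 2 were higher and 3 lower, with Adamts3 2.81-fold higher (adjusted p = 0.00638) and Adamts15 1.81-fold lower (adjusted p = 0.00593). Coch, which encodes the matrix protein cochlin, read 10.72, 10.88 and 10.83 in R2 and 7.52, 7.76 and 7.59 in R3, 9.1-fold lower (adjusted p = 2.90e-06), and its R3 level lay at that of R1 (7.62 ± 0.20).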
